A study of Rattus norvegicus with 12 samples.

Results

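Integrins and cadherins are receptors by which cells hold on to matrix and to each other, and their RNA was followed through 3 layers of young cartilage. The genes were those whose transcript cluster on the array carries a single symbol of the form Itga, Itgb or Cdh plus a number or letter, with the brightest cluster standing for each gene. This gave 33 of the 14300 genes with a symbol, namely 11 integrin alpha subunits, 7 integrin beta subunits and 15 cadherins, each with 1 cluster. The layers came from the proximal tibial epiphysis of 10-day-old Sprague-Dawley rats with no treatment named. Articular cartilage gave the superficial zone (SZ) and the intermediate/deep zone (IDZ), and growth plate cartilage gave the resting zone (RZ). Each zone had 4 Affymetrix Rat Gene 1.0 ST arrays. An SZ array held the 2 tibias of 1 animal (animals 5 to 8 in turn), whereas an IDZ or RZ array held 4 tibias pooled from 2 of the 8 animals, replicate 1 from the first pair and so on, so that IDZ and RZ arrays of the same number share animals and SZ numbers do not match them. The question was which of these receptors differ between the zones. Per the methods of the study, adjoining soft tissue was cut away and the tissue between zones was left out. Pooling hides the spread between the 2 animals of an IDZ or RZ array.

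An integrin is a pair of 1 alpha and 1 beta subunit that spans the membrane, binds collagen, laminin, fibronectin or a counter-receptor outside the cell, and ties it through talin and other adaptors to actin inside. The beta1 subunit pairs with most alpha subunits, and beta2 is made by leukocytes. Classical cadherins bind the same kind of cadherin on the neighbouring cell and are held by catenins to actin. Chondrocytes sit in matrix and are known for collagen and fibronectin integrins, while N-cadherin (Cdh2) is known from the condensing mesenchyme that precedes cartilage. RNA of a mixed tissue measures the sum over its cells, so fewer cells of a type and less RNA per cell cannot be told apart.

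The zone labels were set against marker genes. Prg4, which encodes the lubricant of the joint surface, ranged from 12.53 to 12.97 on the SZ arrays, from 8.86 to 10.95 on the IDZ arrays and from 5.24 to 6.40 on the RZ arrays. All levels are log2 values made by robust multi-array average (RMA), and all differences are log2 differences, where 1 is a 2-fold change. The mean of 10 chondrocyte genes ran from 11.21 to 11.70 in SZ, from 12.43 to 12.46 in IDZ and from 12.26 to 12.46 in RZ, so the cartilage genes were bright on all 12 arrays and lower in SZ. Lists for other cells were higher in SZ on every array: 9 endothelial genes averaged 8.68 to 9.25 in SZ against 6.52 to 6.97 in IDZ and 6.36 to 6.61 in RZ, 7 pericyte and smooth muscle genes 9.49 to 9.96 against 7.65 to 8.10 and 7.58 to 7.82, 12 macrophage and myeloid genes 8.13 to 9.0 against 6.49 to 6.71 and 6.28 to 6.81, and 11 tendon and fibrous tissue genes 10.26 to 10.71 against 7.84 to 8.34 and 7.04 to 7.31. Between SZ and IDZ, 8 of 9, 6 of 7, 12 of 12 and 9 of 11 genes of these lists were called higher in SZ, compared with 1 of 10 lymphocyte genes. Of 4 osteoclast genes 3 were called higher in SZ, as were 4 of 5 superficial chondrocyte genes and 2 of 6 Schwann and perineurial genes. At most 1 gene in each direction was called in the neutrophil and mast cell (8), megakaryocyte and platelet (4), erythroid (5), osteoblast (6), skeletal muscle (7) and epithelial (5) lists. The array of SZ replicate 4 stood apart, with an interquartile range of 2.24 against 2.50 to 2.91 on the other 11 arrays. It was the lowest SZ array for 15 of the 33 genes and the highest for 10. Over all clusters it was the lowest SZ array for 41.3% and the highest for 40.5%, so its extremes are not particular to these genes. IDZ replicate 4 was the lowest IDZ array for 16 of the 33 genes, against 27.6% of all clusters. RZ replicates 1 and 4 were each the lowest RZ array for 12 of them, against 25.3% and 24.7% of all clusters. The table holds no detection call, so a low value cannot be told from no RNA. As a rough guide only, since probes differ, 1237 olfactory and vomeronasal receptor genes, which cartilage has little use for, had a 95th percentile of 6.36. Of the genes called, Itgam lay under it in all 3 zones, Itga4 and Cdh6 in both of their lower zones, Cdh10 in SZ and RZ, Cdh2 in IDZ, and Itga2, Itga7 and Itgb8 in RZ, so differences from those levels are nominal values and not measured folds. The plot of marker lists by array shows the list levels.

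**Figure D1:**
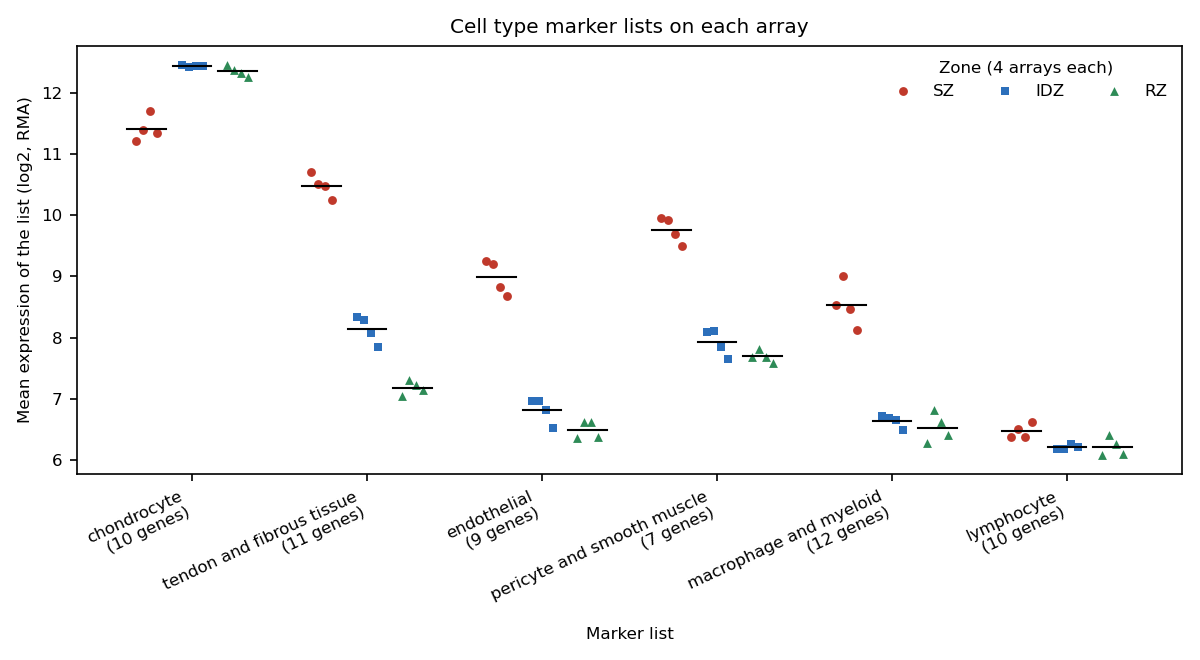
Mean log2 RMA expression of 6 marker gene lists (y axis) on each of the 12 arrays, by list (x axis) and zone, with points for arrays and black bars for zone means. The SZ arrays lie above all IDZ and RZ arrays for tendon, endothelial, pericyte and macrophage genes and below them for chondrocyte genes.

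Most integrins were higher in the superficial zone, whereas single cadherins were called in both directions. Zones were compared in limma, with p adjusted over all 27342 clusters and called under 0.05. Against IDZ, 14 of the 33 genes were higher in SZ and 4 lower, where 11.8% of all clusters were called higher in SZ and 11.2% higher in IDZ. Against RZ, 15 were higher in SZ and 3 higher in RZ, where 10.0% and 11.1% of all clusters were called. Between IDZ and RZ, 6 were higher in IDZ and 2 in RZ, against 2.78% and 3.95% of all clusters. The 6 became 3 with the random replicate block for shared animals, with arrays centred on their medians and without IDZ replicate 1, 2 or 3 or RZ replicate 2 or 3. With 2-fold also required, the counts were 7 and 2 for SZ and IDZ (2.96% and 0.977% of all clusters), 1 and 1 for IDZ and RZ (0.519% and 0.399%) and 9 and 0 for SZ and RZ (3.19% and 1.35%).

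By family, 11 of 18 integrins were higher in SZ than in IDZ and 1 was lower, and 13 were higher in SZ than in RZ with none lower. Of 15 cadherins, 3 were higher and 3 lower in SZ against IDZ, and 2 higher and 3 lower against RZ. Of all clusters, 11.8% were called higher in SZ and 11.2% higher in IDZ, and 10.0% and 11.1% for SZ and RZ. The cadherin counts are small beside these shares, so nothing about that family as a whole is read from them. The median difference of the integrins was 0.84 for SZ minus IDZ and 0.94 for SZ minus RZ, while that of the cadherins was 0.00 and -0.01, and that of all clusters -0.08 and -0.03. Between IDZ and RZ the medians were 0.11, 0.09 and 0.03. The highest zone mean was in SZ for 14 integrins and 5 cadherins, in IDZ for 2 and 7, and in RZ for 2 and 3. Without SZ replicate 4, the counts for SZ against IDZ were 16 higher in SZ and 5 in IDZ. Altogether 21 genes, 14 integrins and 7 cadherins, were called in at least 1 comparison. The 3 comparisons share arrays and are not independent of each other.

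**Figure D2:**
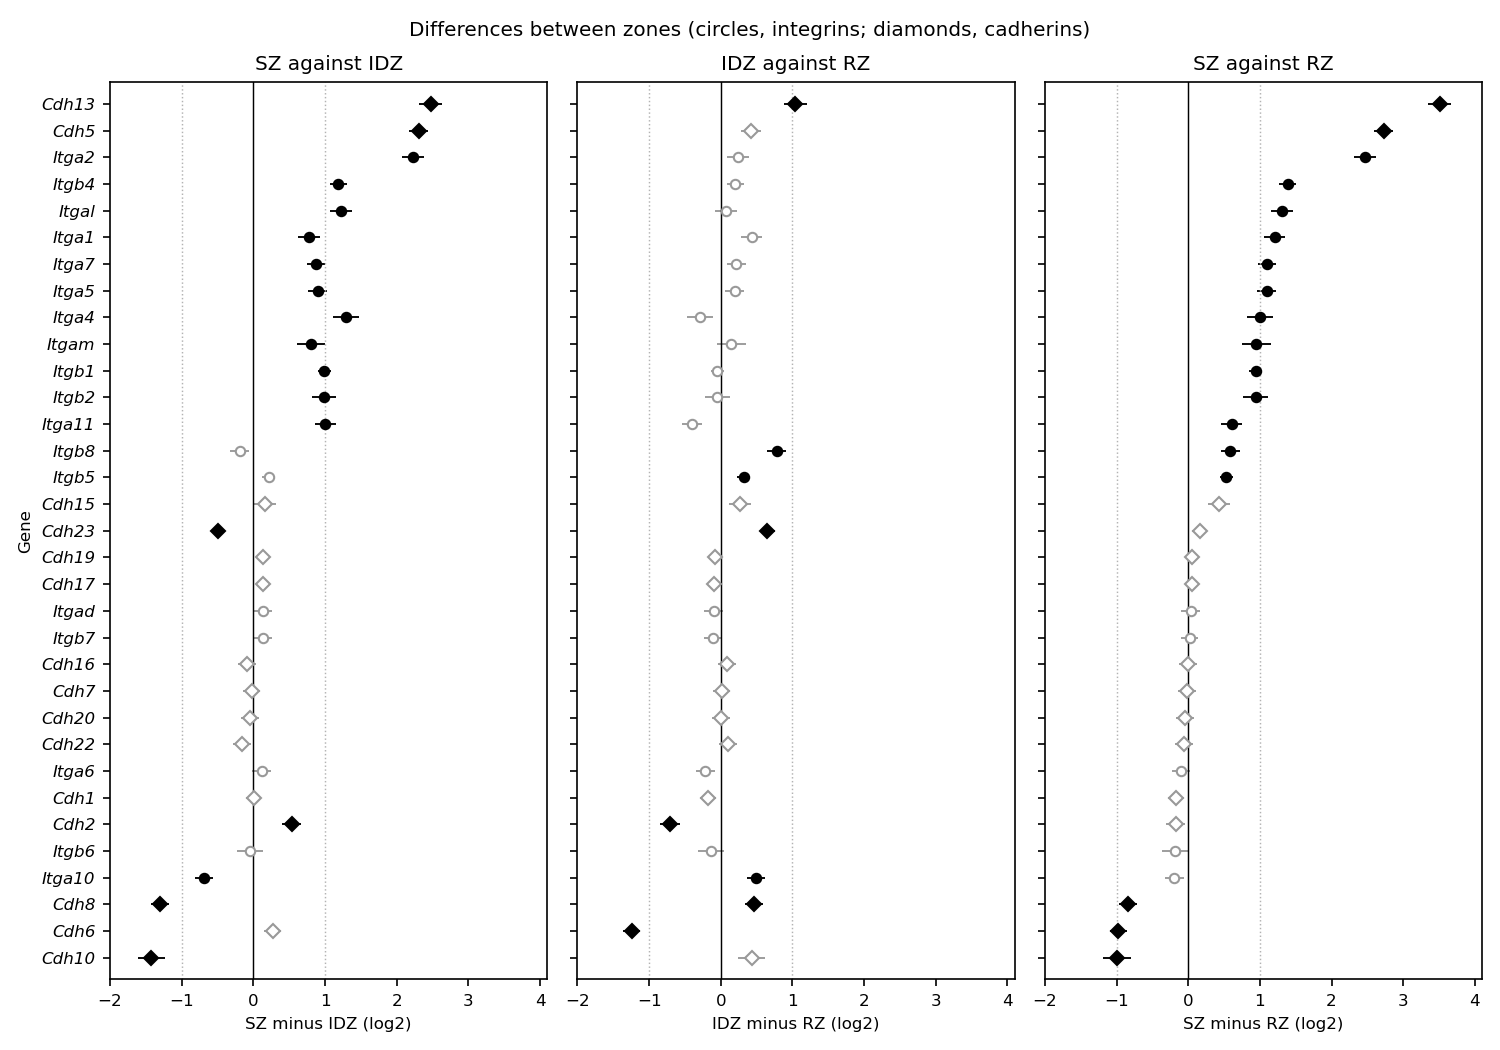
Log2 differences (x axis) between SZ and IDZ, IDZ and RZ, and SZ and RZ for the 33 genes (y axis, ordered by SZ minus RZ), with error bars of 1 standard error from limma; filled black symbols are called at an adjusted p under 0.05, open grey symbols are not, and dotted lines mark a 2-fold difference. Cdh13, Cdh5 and Itga2 lie farthest to the SZ side, and Cdh8, Cdh10 and Itga10 are called on the IDZ side against SZ.

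The collagen receptors were divided between the zones. The rat array carried all 4 alpha subunits that bind collagen through an inserted domain, each of which pairs with beta1, and 3 of them were highest in SZ while the fourth was highest in IDZ. Their promoter windows are shown because the genes of this small family differed in direction. They run from 250 bases before to 50 bases after the start of each gene and come from RefSeq on the build GRCr8, with motif matches in capitals.
Itga1 (chr2:48545234-48545533, minus strand): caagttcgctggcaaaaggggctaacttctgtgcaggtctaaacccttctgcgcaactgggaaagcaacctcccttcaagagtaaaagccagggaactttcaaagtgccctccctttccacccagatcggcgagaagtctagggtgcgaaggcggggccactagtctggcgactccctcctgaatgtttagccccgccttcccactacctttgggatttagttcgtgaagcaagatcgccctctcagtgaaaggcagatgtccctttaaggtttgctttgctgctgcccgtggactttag
Itga2 (chr2:48354460-48354759, minus strand): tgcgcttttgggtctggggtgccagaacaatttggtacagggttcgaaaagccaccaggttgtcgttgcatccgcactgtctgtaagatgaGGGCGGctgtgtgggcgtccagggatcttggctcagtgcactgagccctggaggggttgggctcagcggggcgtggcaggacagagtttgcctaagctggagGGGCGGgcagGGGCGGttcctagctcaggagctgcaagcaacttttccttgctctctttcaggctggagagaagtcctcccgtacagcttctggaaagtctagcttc
Itga10 (chr2:186871461-186871760, plus strand): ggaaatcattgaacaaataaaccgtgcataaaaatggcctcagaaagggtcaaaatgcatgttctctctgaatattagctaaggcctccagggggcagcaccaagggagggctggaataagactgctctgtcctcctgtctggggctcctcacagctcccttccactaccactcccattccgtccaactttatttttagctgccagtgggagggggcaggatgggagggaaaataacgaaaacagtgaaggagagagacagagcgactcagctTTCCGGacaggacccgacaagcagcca
Itga11 (chr8:72041182-72041481, plus strand): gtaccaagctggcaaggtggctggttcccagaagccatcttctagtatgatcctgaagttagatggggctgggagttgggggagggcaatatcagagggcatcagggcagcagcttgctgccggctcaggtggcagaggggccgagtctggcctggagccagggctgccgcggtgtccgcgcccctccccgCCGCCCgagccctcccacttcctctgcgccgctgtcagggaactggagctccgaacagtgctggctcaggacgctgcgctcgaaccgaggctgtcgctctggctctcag
Itga1 and Itga2 lie on the same strand of chromosome 2. The letters searched on both strands were TGANTCA (AP-1), TGTGGT (RUNX), ACAAAG (SOX), CCGGAA (ETS) and GGGCGG (GC box), which 7.33%, 17.3%, 18.8%, 15.0% and 33.1% of the 33469 rat promoter windows hold, and no match overlaps another in these 4 windows. The Itga2 window held 3 GC boxes, that of Itga11 held 1, that of Itga10 held 1 ETS match, and that of Itga1 held none of the 5. Of the 33 genes, 21 matched a window, and 11, 4, 4, 2 and 1 of those held a GC box, a RUNX, a SOX, an ETS and an AP-1 match. A match is a stretch of letters and not a binding site.

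Itga2 encodes the alpha2 chain of a collagen receptor found on many cells, platelets and fibroblasts among them. Its levels on replicates 1 to 4 were 8.93, 8.91, 8.71 and 8.30 in SZ, 6.70, 6.61, 6.48 and 6.15 in IDZ and 6.02, 6.23, 6.42 and 6.31 in RZ. All 4 SZ arrays lay far above the others, and the IDZ and RZ ranges overlapped. The difference was 2.23 (SE 0.15, 4.68-fold, adjusted p = 6.3e-08) for SZ minus IDZ and 2.47 (5.54-fold) for SZ minus RZ.

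Itga11, whose alpha11 chain is known as a receptor for fibrillar collagen on fibroblasts, read 9.10, 9.40, 9.40 and 8.65 in SZ, 8.06, 8.14, 8.33 and 8.00 in IDZ and 8.53, 8.60, 8.56 and 8.44 in RZ. SZ was the highest and IDZ the lowest zone, with no overlap between any 2 zones. SZ minus IDZ was 1.00 (SE 0.14, 2.01-fold, adjusted p = 0.00010) and SZ minus RZ was 0.60 (1.52-fold, adjusted p = 0.0063). IDZ minus RZ was -0.40 and was not called (adjusted p = 0.13), although it was called with the shared animals as a fixed replicate block (adjusted p = 0.010), with the arrays of these 2 zones alone (0.0077) and without SZ replicate 4 (adjusted p = 0.010).

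Itga1, the alpha1 chain that binds collagens of basement membrane and matrix, read 9.02, 9.16, 8.75 and 8.42 in SZ, 8.18, 8.20, 7.96 and 7.90 in IDZ and 7.91, 7.54, 7.46 and 7.62 in RZ. The SZ arrays were above all others, and IDZ and RZ met at 1 array each. SZ minus RZ was 1.21 (SE 0.15, 2.31-fold, adjusted p = 2.1e-05) and SZ minus IDZ 0.77 (1.71-fold, adjusted p = 0.0013). IDZ minus RZ was 0.43 and was called only with the fixed replicate block (adjusted p = 0.013), with the arrays of these 2 zones alone (0.019), after quantile normalization once more (0.024) or without SZ replicate 4 (0.022).

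Itga10 encodes alpha10, the collagen receptor subunit best known from chondrocytes. It read 8.79, 9.17, 9.20 and 8.85 in SZ, 9.81, 9.76, 9.72 and 9.47 in IDZ and 9.46, 9.20, 9.17 and 8.96 in RZ. Every IDZ array was above every SZ and RZ array, while SZ and RZ overlapped. IDZ exceeded SZ by 0.69, as the difference of -0.69 for SZ minus IDZ shows (SE 0.13, 1.61-fold, adjusted p = 0.0010), and RZ by 0.49 (1.41-fold, adjusted p = 0.031). The call against RZ was lost with the random replicate block for shared animals (adjusted p = 0.053), with arrays centred on their medians (0.073) and without IDZ replicate 1, 2 or 3 or RZ replicate 2, 3 or 4 (0.074 to 0.11). Between SZ and IDZ the tendon and fibrous tissue list was higher in SZ, as Itga2, Itga1 and Itga11 were, and the chondrocyte list was higher in IDZ, as Itga10 was. The lists did not follow the genes throughout: the chondrocyte list was also higher in RZ than in SZ, with 8 of 10 genes called, where Itga10 was not called (-0.19, adjusted p = 0.37), and the tendon list was higher in IDZ than in RZ on every array, where the Itga11 levels lay the other way. Their part in these results was not tested.

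The laminin receptors that were measured behaved differently from each other. Itga6, whose alpha6 chain pairs with beta1 or beta4, read 9.89, 9.99, 10.11 and 9.55 in SZ, 9.95, 9.78, 9.74 and 9.62 in IDZ and 10.22, 10.09, 9.80 and 9.83 in RZ. All 3 zones overlapped, and no difference was called: 0.11 for SZ minus IDZ, -0.22 for IDZ minus RZ and -0.10 for SZ minus RZ, each with an SE of 0.13. Itga7, a laminin receptor best known from skeletal and smooth muscle, read 7.54, 7.70, 7.18 and 7.38 in SZ, 6.82, 6.35, 6.57 and 6.53 in IDZ and 6.14, 6.39, 6.40 and 6.47 in RZ. The SZ arrays stood above the rest, by 0.88 over IDZ (1.84-fold, adjusted p = 0.00011) and 1.10 over RZ (SE 0.13, 2.14-fold, adjusted p = 1.1e-05). The skeletal muscle list ran from 6.59 to 7.12 in SZ, 6.82 to 6.95 in IDZ and 6.80 to 6.97 in RZ, with 1 of 7 genes called in each direction between SZ and IDZ, while the pericyte and smooth muscle list was higher in SZ; neither was tested as a source.

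Itga5 encodes the alpha5 chain of the main fibronectin receptor, which reads the sequence RGD. It read 10.95, 11.20, 10.96 and 10.61 in SZ, 10.04, 10.14, 9.91 and 10.02 in IDZ and 10.04, 10.00, 9.67 and 9.62 in RZ. The SZ arrays were the highest and the other zones overlapped. SZ exceeded IDZ by 0.90 (SE 0.13, 1.87-fold, adjusted p = 0.00012) and RZ by 1.10 (2.14-fold, adjusted p = 1.4e-05). Itgav, its relative in the RGD-binding group, had no cluster under its own symbol in the annotation used here and has no value. The same held for Itga2b, Itga3, Itga8, Itga9, Itgae, Itgax, Itgb3, Cdh3, Cdh4, Cdh9, Cdh11, Cdh12, Cdh18, Cdh24 and Cdh26, which were not analysed.

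Itga4, whose alpha4 chain binds Vcam1 and fibronectin and is known from leukocytes and mesenchymal cells, read 6.52, 6.66, 6.69 and 5.85 in SZ, 5.23, 4.93, 5.37 and 5.04 in IDZ and 5.13, 5.69, 5.63 and 5.27 in RZ. SZ replicate 4 was the lowest of its zone yet still above all IDZ and RZ arrays. SZ exceeded IDZ by 1.29 (SE 0.18, 2.44-fold, adjusted p = 8.3e-05) and RZ by 1.00 (adjusted p = 0.00071), the latter at the 2-fold limit, both against levels under the receptor guide of 6.36.

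The leukocyte integrins were higher in SZ where they moved at all. Itgal, the alpha chain of LFA-1 on leukocytes, read 7.65, 8.44, 8.11 and 7.72 in SZ, 6.73, 6.94, 6.77 and 6.56 in IDZ and 6.57, 6.75, 6.81 and 6.56 in RZ. SZ replicate 2 was the highest array, all SZ arrays were above the others, and IDZ and RZ overlapped. The difference was 1.23 (SE 0.15, 2.34-fold, adjusted p = 2.7e-05) against IDZ and 1.31 (2.47-fold) against RZ. Itgb2, the beta chain with which it pairs, was higher in SZ by 0.99 (SE 0.17, 1.98-fold, adjusted p = 0.00052) and 0.94. Itgam, the alpha chain of the complement receptor on macrophages and neutrophils, was higher by 0.80 (SE 0.20, adjusted p = 0.0083) and 0.95, though every zone mean lay under the guide of 6.36. The third leukocyte alpha gene measured, Itgad, was not called.

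The macrophage list shared some of its extremes with these genes. SZ replicate 2 was the highest of the 12 arrays for that list and for Itgam, Itgal and Itgb2, and RZ replicate 2 was the highest RZ array for the list, Itgam and Itgb2. The order of other arrays differed, since SZ replicate 1 was second highest for the list (8.53) and lowest for Itgal and Itgam, and IDZ replicate 1 was the highest IDZ array for the list (6.71) and the lowest for Itgb2 (6.42). The lymphocyte list was 6.37 to 6.62 in SZ, 6.17 to 6.26 in IDZ and 6.08 to 6.41 in RZ. Its SZ arrays thus lay above all IDZ arrays but overlapped with RZ. Its 1 called gene, Cd4, was higher in SZ than in IDZ by 2.65. The other 9 genes were not called, and the median difference of the list was 0.02, so the list mean does not speak for most of its genes. The T cell gene Cd3e ranged from 5.37 to 6.02 in SZ and from 5.26 to 5.62 in IDZ and was not called. The part of macrophages or lymphocytes in the leukocyte integrins was not tested.

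Among the beta subunits, Itgb1, the partner of alpha1, alpha2, alpha5, alpha10 and alpha11, was higher in SZ. It read 10.99, 10.94, 11.02 and 10.70 in SZ, 9.92, 9.79, 9.98 and 10.00 in IDZ and 10.04, 10.01, 9.92 and 9.91 in RZ. The SZ arrays were separate from the rest and the other zones overlapped closely. The differences were 0.99 (SE 0.09, 1.98-fold, adjusted p = 1.6e-06) against IDZ and 0.94 (1.92-fold, adjusted p = 1.9e-06) against RZ, so Itgb1 passed the test but not the 2-fold limit.

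Itgb4, which pairs with alpha6 and anchors epithelial cells to laminin through keratin filaments, read 8.16, 8.20, 7.76 and 7.79 in SZ, 6.86, 6.82, 6.80 and 6.69 in IDZ and 6.63, 6.40, 6.73 and 6.59 in RZ. SZ again stood alone, by 1.18 over IDZ (SE 0.12, 2.27-fold, adjusted p = 2.3e-06) and 1.39 over RZ (2.62-fold, adjusted p = 3.0e-07), whereas its partner Itga6 was not called. The epithelial list was 5.67 to 6.14 in SZ, 5.99 to 6.18 in IDZ and 5.97 to 6.21 in RZ, and none of its 5 genes was called higher in SZ. Lists of other cells, the endothelial list among them, were higher in SZ. The cell source of Itgb4 was not tested.

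Itgb5 and Itgb8, which pair with alpha v and bind RGD ligands, differed from this pattern. Itgb5 read 10.56, 10.53, 10.54 and 10.29 in SZ, 10.27, 10.25, 10.20 and 10.34 in IDZ and 9.92, 10.09, 9.87 and 9.90 in RZ. RZ lay lowest without overlap, and SZ and IDZ overlapped through SZ replicate 4. The difference was 0.53 (SE 0.09, 1.45-fold, adjusted p = 0.00044) for SZ minus RZ and 0.32 (1.25-fold, adjusted p = 0.049) for IDZ minus RZ, while 0.21 for SZ minus IDZ was called only without SZ replicate 4 (0.28, adjusted p = 0.011). The IDZ call was lost with the random replicate block (adjusted p = 0.075) and without any single array other than SZ replicate 4 (0.050 to 0.13). Itgb8 was higher than RZ in both articular zones, by 0.78 in IDZ (SE 0.13, 1.72-fold, adjusted p = 0.0016) and 0.59 in SZ (1.50-fold, adjusted p = 0.0037). Itgb6 and Itgb7, best known from epithelium and lymphocytes, were not called.

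**Figure D3:**
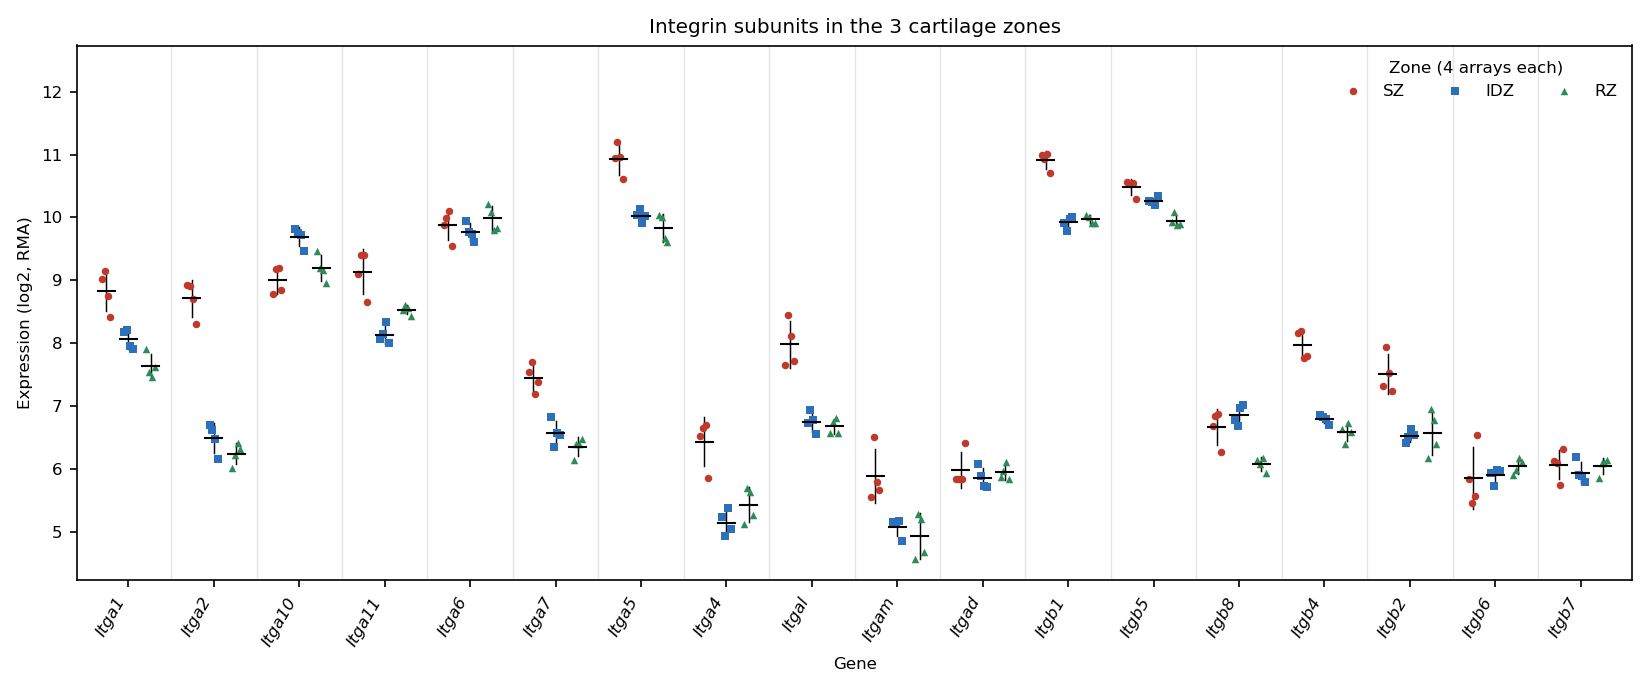
Log2 RMA expression (y axis) of the 18 integrin genes (x axis) on each of 12 arrays, coloured by zone, with a bar for the zone mean and a vertical line for 1 SD of 4 arrays; heights of different genes are not comparable because probes differ. SZ arrays lie above the other zones for 11 genes, and Itga10 is highest in IDZ.

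Among the type I cadherins only Cdh2 was called. N-cadherin read 7.19, 6.77, 6.79 and 6.55 in SZ, 6.26, 6.31, 6.25 and 6.34 in IDZ and 6.76, 7.24, 7.16 and 6.83 in RZ. IDZ was lowest, with no overlap with the other zones, and SZ and RZ overlapped. It was lower in IDZ than in SZ by 0.53 (SE 0.14, 1.45-fold, adjusted p = 0.0092) and than in RZ by 0.71, the value of IDZ minus RZ being -0.71 (1.63-fold, adjusted p = 0.0046). Cdh1 (E-cadherin) and Cdh15 (M-cadherin of muscle) were not called.

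The type II cadherins differed in all directions. Cdh5, VE-cadherin of endothelial cell junctions, read 9.54, 9.64, 9.59 and 9.09 in SZ, 7.16, 7.29, 7.27 and 6.91 in IDZ and 6.81, 6.93, 6.64 and 6.56 in RZ. The SZ arrays were all above the others, by 2.31 over IDZ (SE 0.13, 4.96-fold, adjusted p = 1.8e-08) and 2.73 over RZ (6.64-fold, adjusted p = 1.1e-09). IDZ and RZ overlapped by a small margin, and their difference of 0.42 was not called (adjusted p = 0.078), though it was with the fixed replicate block (0.0097), with these 2 zones alone (0.020), after quantile normalization once more (0.025) and without SZ replicate 4 (0.012) or IDZ replicate 4 (0.050). The endothelial list, which does not hold Cdh5, was also higher in SZ, with 8 of its 9 genes called against IDZ and 8 against RZ; the tissue source of Cdh5 was not tested.

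Cdh8 and Cdh10, known chiefly from the nervous system, were lowest in SZ. Cdh8 read 6.57, 6.86, 7.11 and 6.57 in SZ, 8.13, 8.01, 8.02 and 8.16 in IDZ and 7.59, 7.51, 7.52 and 7.84 in RZ. The 3 zones did not overlap, with IDZ highest. SZ minus IDZ was -1.31 (SE 0.12, 2.47-fold, adjusted p = 1.8e-06), SZ minus RZ was -0.84 (1.79-fold, adjusted p = 0.00011) and IDZ minus RZ was 0.46 (1.38-fold, adjusted p = 0.035). The last of these was lost with the random replicate block (adjusted p = 0.064), with centred arrays (0.098) and without any single IDZ array or RZ replicate 1, 2 or 3 (0.073 to 0.11).

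Cdh10 read 5.01, 4.83, 5.31 and 5.03 in SZ, 6.91, 6.61, 5.92 and 6.44 in IDZ and 6.00, 5.85, 5.82 and 6.50 in RZ. All SZ arrays were below all others, while IDZ and RZ overlapped. SZ minus IDZ was -1.42 (SE 0.19, 2.68-fold, adjusted p = 6.1e-05) and SZ minus RZ was -0.99 (1.99-fold, adjusted p = 0.0013). The SZ and RZ means (5.05 and 6.04) lay under the guide of 6.36 and the IDZ mean (6.47) just over it, so these folds are nominal. The Schwann and perineurial list, the nerve markers measured, ran from 7.43 to 7.49 in SZ, 7.35 to 7.56 in IDZ and 7.25 to 7.38 in RZ. Of its 6 genes, 2 were called higher in SZ than in IDZ and 1, Slc2a1, lower (-1.02).

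Cdh6 (K-cadherin), known from kidney and bone-related mesenchyme, was higher in RZ than in either other zone. It read 5.95, 6.10, 6.20 and 5.89 in SZ, 5.66, 5.99, 5.57 and 5.84 in IDZ and 7.05, 6.96, 6.83 and 7.21 in RZ. Every RZ array was above every SZ and IDZ array, which overlapped. IDZ minus RZ was -1.24 (SE 0.12, 2.37-fold, adjusted p = 7.0e-06) and SZ minus RZ was -0.98 (1.97-fold, adjusted p = 1.4e-05). The SZ and IDZ means (6.03 and 5.77) lay under the guide of 6.36, so these folds are nominal. SZ minus IDZ was called only without SZ replicate 4 (0.32, adjusted p = 0.040). Of the 33 genes, Cdh6 alone was 2-fold higher in RZ than in IDZ. Of 6 osteoblast genes, 2 (Ibsp and Alpl) were also higher in RZ than in IDZ, both at least 2-fold, and 4 were not called. The study counts both of these genes among markers of hypertrophic growth plate chondrocytes, so they do not single out osteoblasts. The list averaged 7.36 to 8.03 in RZ against 6.71 to 7.05 in IDZ and 7.00 to 7.87 in SZ, and its part in the Cdh6 result was not tested. The type II genes Cdh7, Cdh19, Cdh20 and Cdh22 were not called.

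Cdh13 (T-cadherin), a cadherin held by a lipid anchor without a cytoplasmic tail and known from vessels, was highest in SZ, lower in IDZ and lowest in RZ. It read 10.61, 10.43, 10.12 and 9.94 in SZ, 7.89, 8.11, 7.61 and 7.59 in IDZ and 7.06, 6.79, 6.70 and 6.50 in RZ. No 2 zones overlapped. The difference was 2.47 (SE 0.16, 5.55-fold, adjusted p = 5.2e-08) for SZ minus IDZ, 1.04 (2.05-fold, adjusted p = 0.00091) for IDZ minus RZ and 3.51 (11.4-fold, adjusted p = 6.3e-10) for SZ minus RZ. It was the only one of the 33 genes at least 2-fold higher in IDZ than in RZ, and it fell under 2-fold there without IDZ replicate 2 or RZ replicate 4. The pericyte and smooth muscle list also was highest in SZ, with 6 of 7 genes called higher than in IDZ and 1, Cspg4, called lower (-0.37). Between IDZ and RZ, 1 gene of that list was called higher in IDZ, as were 3 of 11 tendon and fibrous tissue genes. The part of either list in the Cdh13 result was not tested.

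Cdh23, a long cadherin known from the tip links of inner ear hair cells, was highest in IDZ. It exceeded SZ by 0.49, SZ minus IDZ being -0.49 (SE 0.10, 1.40-fold, adjusted p = 0.0022), and RZ by 0.65 (1.57-fold, adjusted p = 0.00083). Cdh16 and Cdh17, known from kidney and gut epithelium, were not called.

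**Figure D4:**
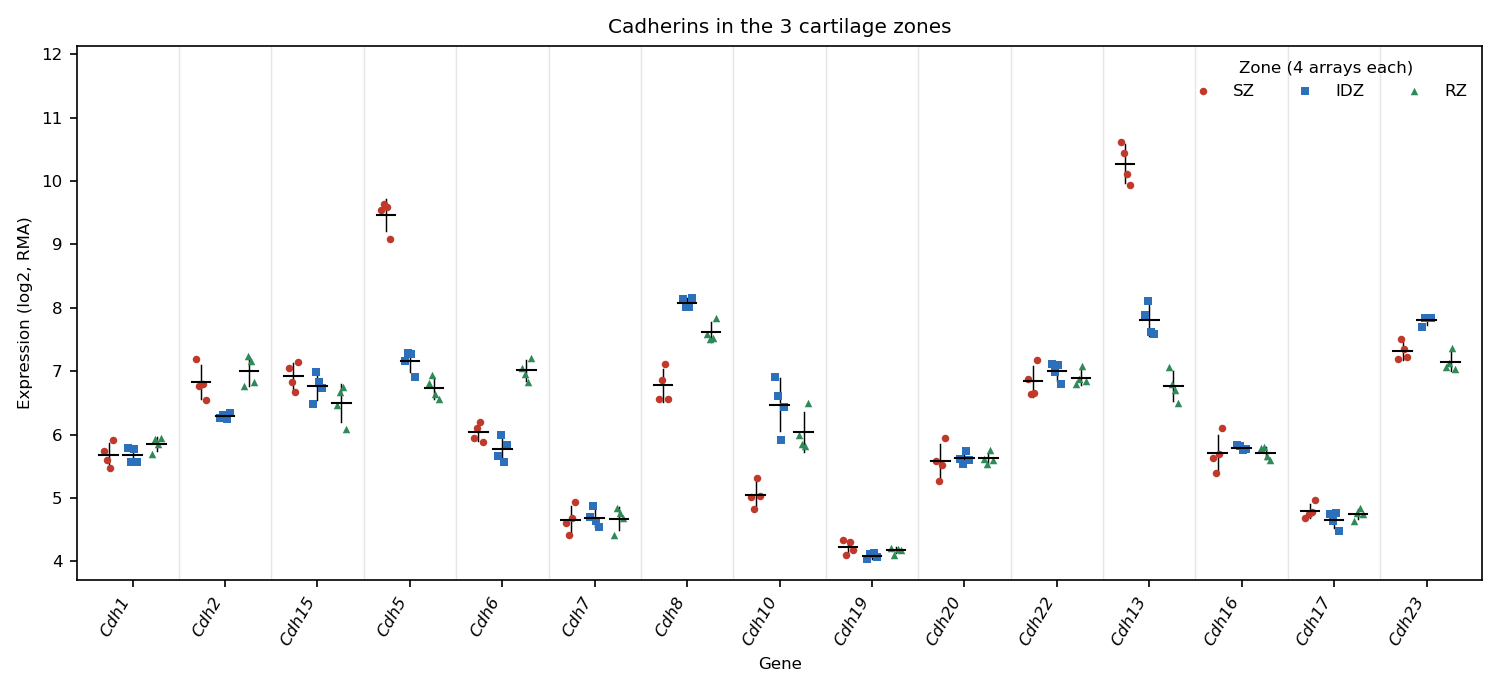
Log2 RMA expression (y axis) of the 15 cadherin genes (x axis) on each of 12 arrays, coloured by zone, with a bar for the zone mean and a vertical line for 1 SD of 4 arrays; heights of different genes are not comparable because probes differ. Cdh5 and Cdh13 are high in SZ, Cdh8 and Cdh10 are low in SZ, and Cdh6 is high in RZ.

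The 12 genes called in no comparison were 4 integrins (Itga6, Itgad, Itgb6, Itgb7) and 8 cadherins (Cdh1, Cdh7, Cdh15, Cdh16, Cdh17, Cdh19, Cdh20, Cdh22). Their 36 differences reached at most 0.42 in size. Groups of 4 arrays did not overlap for 18 genes between SZ and IDZ and for 18 between SZ and RZ, and all of these were called. Between IDZ and RZ 9 genes did not overlap and 8 of them were called, Itga11 being the ninth. Over all clusters the share without overlap was 10.2% with SZ higher and 12.1% with IDZ higher, 9.08% and 11.1% for IDZ and RZ, and 9.61% and 12.3% for SZ and RZ.

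The partners of these receptors were counted from lists chosen with earlier results of these arrays known. Each count below is to be read beside the share of all clusters called. That share was 11.8% higher in SZ and 11.2% higher in IDZ between these 2 zones. It was 10.0% in SZ and 11.1% in RZ for SZ against RZ, and 2.78% in IDZ and 3.95% in RZ for IDZ against RZ. Of 22 integrin adaptors measured, 12 were higher and 2 lower in SZ than in IDZ, 10 higher and 2 lower than in RZ, and 2 were higher in IDZ and 3 in RZ between those zones, with the 2 lost under the random replicate block. The median difference of the list was 0.38, 0.33 and -0.03 in the same order. Parvb (beta-parvin, which links integrin-linked kinase to actin) exceeded IDZ in SZ by 1.14 (SE 0.13), and Tns1 (tensin, which binds beta tails and actin) exceeded RZ in SZ by 1.39 (SE 0.12). Lims2, a partner of integrin-linked kinase, ran the other way with a SZ minus RZ difference of -1.65 (SE 0.13). Paxillin (Pxn) was also lower in SZ, by -0.42 against IDZ.

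Of 10 catenins and cadherin partners, 5 were higher in SZ than in IDZ and none lower, 4 were higher and 2 lower than in RZ, and none was called between IDZ and RZ, where the fixed replicate block called 1 higher in RZ. Without SZ replicate 4, 3 were lower in SZ than in IDZ and 2 were higher in RZ than in IDZ. Plakoglobin (Jup), the catenin shared by cadherin junctions and desmosomes, was higher in SZ by 1.54 (SE 0.12) and 1.51, and beta-catenin (Ctnnb1) by 0.51 (SE 0.10) and 0.36. Afadin (Afdn), a junction protein that binds actin, was higher by 0.88 and 0.60.

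Integrin ligands were higher in SZ for 16 of 22 genes against IDZ and 17 against RZ, with 2 lower in each. Between IDZ and RZ 5 were higher in IDZ and none in RZ, a count of 3 with the random and 8 with the fixed replicate block. The largest differences for SZ minus IDZ were those of Egfl6 (3.25), which binds alpha8 beta1 in mouse skin, Postn (3.10), a ligand of alpha v integrins, the basement membrane collagen Col4a1 (2.02) and the fibrillar collagen Col1a1 (1.93), which Col1a2 and Col3a1 (1.92 each) followed within their errors. Col1a1 lay between 13.71 and 13.77 on the SZ arrays and Col1a2 between 13.50 and 13.58, near the highest value of the whole table (14.23), so their differences are nominal. Those for SZ minus RZ were Postn (5.56), Col3a1 (3.89), Egfl6 (3.71) and Col1a2 (3.27), and Postn, Col3a1 and Col1a2 were also 2-fold higher in IDZ than in RZ, by 2.46, 1.97 and 1.35. Fibronectin (Fn1), the ligand of alpha5 beta1, was higher in SZ by 0.41 (SE 0.12) over IDZ and 0.46 over RZ. Nid2, a basement membrane linker, was lower in SZ than in IDZ with a difference of -1.10, and the cartilage collagen Col9a1 with -0.93. Col2a1 was not called, but its arrays lay between 13.60 and 13.91, also near the highest value of the table, so a difference could be hidden.

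Of 19 other members of the cadherin superfamily, 3 were higher and 3 lower in SZ than in IDZ, 5 higher in IDZ and 2 in RZ, and 6 higher and 3 lower in SZ than in RZ. The first pair of counts is small and near the 11.8% and 11.2% of all clusters called, so nothing about this list is read from it. Without SZ replicate 4 the first pair of counts was 5 and 7. Protocadherin 1 (Pcdh1) exceeded IDZ in SZ by 1.78 (SE 0.17). Clstn2 (calsyntenin, known from synapses) and Fat3, a giant cadherin, were higher in IDZ than in RZ by 1.55 (SE 0.26) and 1.03 (SE 0.15). Against RZ, Clstn2 and Dchs1 (the Fat4 ligand of planar polarity) were higher in SZ by 2.01 and 1.15, whereas Pcdh8 was lower with -1.13 (SE 0.10).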

How the data were processed

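Rat Gene 1.0 ST arrays (Affymetrix) were hybridised with RNA of 12 cartilage samples of 10-day-old rats, 4 per zone. The deposited table holds log2 values from Partek Genomics Suite 6.6, in which the authors ran RMA (background adjustment, quantile normalization across arrays and a median-polish summary of the probes of each transcript cluster), which makes array medians alike (6.76 to 6.90) and limits any shift common to most genes. Per the labels each SZ array held tissue of 1 animal and each IDZ or RZ array tissue pooled from 2 animals. No arrays were merged with each other. No further normalization was applied, no detection call or probe intensity was used, and precision is limited by how many arrays there are.

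The annotation gave 1 symbol to 15068 of 27342 clusters, several to 323 and none to 11951. Every cluster entered the test. The comparisons used lmFit and eBayes of limma 3.58.1 under R 4.3.3, with all 12 arrays in a single model of zone means, and Benjamini-Hochberg adjustment of p ran over every cluster in each comparison. A gene was called at an adjusted p under 0.05, and more strictly also at 2-fold. Adjusted p-values come from this fit unless an alternative is named beside them, and the fit was tested on simulated data. The 33 genes and the 19 gene lists were chosen with earlier results of these data known, so their counts are descriptions. Values per array are given for genes called at 2-fold in any comparison and for Itga5, Itga6, Itga10, Itgb1, Itgb5 and Cdh2, and up to 4 genes with the largest difference per list were named among those called at 2-fold. Fn1, Ctnnb1, Afdn, Pxn, Col9a1, Col2a1 and the markers Prg4, Cd4, Cd3e, Cspg4, Ibsp, Alpl and Slc2a1 were named after their values were seen.

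IDZ and RZ arrays of 1 number come from the same animals by the labels. The correlations of their deviations from the zone means were 0.02, 0.02, 0.03 and 0.21, and the consensus correlation within pairs of animals was -0.14. SZ arrays share animals with the other zones too. SZ replicates 1 and 2 share them with replicate 3 of IDZ and RZ, and SZ replicates 3 and 4 with replicate 4. Fits with a random block by pair of animals over all 3 zones, or a fixed replicate block for IDZ and RZ, were run as alternatives. Further alternatives were other variance priors, fits on 2 zones, a filter on dim clusters, centring or quantile normalization once more, a test against 2-fold and leaving out each array. Motifs were searched in RefSeq promoter windows (GRCr8) with Python 3.11.15 and pandas 2.3.3, and figures were drawn with matplotlib 3.10.9. Protein sequences were not used here.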

Additional observations from a re-analysis of the deposited data

Results flagged for a closer look

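In 6 of 99 groups of 4 arrays (33 genes in 3 zones) 1 array lay far from the other 3 of its zone by Dixon's criterion, where chance alone gives 5%. Itgad was 6.41 on SZ replicate 4 against 5.84 on each of the others, and Itgb5 was 10.29 on the same array against 10.53 to 10.56. In IDZ, Cdh23 was 7.69 on replicate 1 against 7.83 to 7.85, Itgb6 was 5.72 on replicate 2 against 5.94 to 5.98, and Itgam was 4.86 on replicate 4 against 5.13 to 5.17. In RZ, Itgb7 was 5.86 on replicate 1 against 6.09 to 6.14. Itgad, Itgb6 and Itgb7 were called in no comparison, and Itgb5 was called between SZ and IDZ only without SZ replicate 4.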

How the results depend on the processing

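For the 18 genes with values per array, no called difference changed its direction under the alternatives run (22 in all, of which the fixed replicate block bears on IDZ and RZ alone). Single differences of other genes were not recomputed. The counts of genes higher in SZ than in IDZ (14) stayed between 14 and 16 with single arrays left out, and those higher in SZ than in RZ (15) between 15 and 16. At 2-fold the counts ranged from 6 to 10 for SZ over IDZ (main 7) and from 8 to 12 for SZ over RZ (main 9) with single arrays left out, the highest of each without SZ replicate 4. A test against a minimum 2-fold difference, which asks that the difference exceed 2-fold beyond its error, left 3 genes for SZ over IDZ and 3 for SZ over RZ, and 0 for IDZ over SZ (main 2), 0 for IDZ over RZ (main 1) and 0 for RZ over IDZ (main 1).

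The comparison of IDZ with RZ was the least stable. The 6 genes higher in IDZ became 3 with arrays centred on their medians, 3 with the random replicate block and 8 with the fixed replicate block, and 3 to 8 with single arrays left out (3 without IDZ replicate 1, 2 or 3 or RZ replicate 2 or 3, and 8 without SZ replicate 4). The count at least 2-fold higher in IDZ, which is Cdh13, was 0 with centred arrays and 0 to 1 with single arrays left out (0 without IDZ replicate 2 or RZ replicate 4). The genes at least 2-fold higher in RZ than in SZ, none in the main setting, numbered 2 with centred arrays, 1 with the random replicate block and 0 to 2 with single arrays left out (2 without SZ replicate 3 or RZ replicate 3, and 1 without RZ replicate 1 or 2), where Cdh10 and Cdh6 lie at 1.99-fold and 1.97-fold. The replicate block changed no other count of these genes by more than 1.5 times. The cause of these changes was not tested. For the differences of these 18 genes, 618 of those with single arrays left out stayed on their side of the threshold, 24 lost the call and 6 gained it, and 458, 38 and 8 did so under the other alternatives, the test against 2-fold included. Among the partner lists, single arrays moved small counts. Without SZ replicate 4, 8 ligands were higher in IDZ than in RZ (main 5) and 5 other cadherins were higher in RZ than in SZ (main 3). The ligands higher in IDZ than in RZ were 3 without IDZ replicate 1, 2 or 3 or RZ replicate 1, 2 or 4, the adaptors higher there (main 2) were 0 to 1 without SZ replicate 1 or any 1 IDZ or RZ array, the adaptors higher in RZ than in SZ (main 2) were 1 without SZ replicate 3 or RZ replicate 1, 2 or 3, and the catenins (main 2) were 1 without SZ replicate 1, 2 or 3 or RZ replicate 2 or 3.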
